A study of Mus musculus with 3 samples.

Results

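Glutathione peroxidases and NRF2 targets were examined in mouse ES cells as a set of 10 genes among the 24421 genes with deposited read counts. The set holds 6 glutathione peroxidases, Gpx1, Gpx2, Gpx3, Gpx4, Gpx7 and Gpx8, and 4 genes activated by NRF2, Nqo1, Hmox1, Gclm and Txnrd1. Gpx2 was chosen by its own readout, because it had been seen to be lower in both knockdown libraries, and the other genes were added as its family members and as standard targets of NRF2. A ratio was taken only for genes whose mean over the 3 libraries reached 10 reads, which all 10 did, along with 16670 genes in all. Where 3 values follow each other, they stand in the order control, KD-1, KD-2.

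The study asked how the nucleoporin NUP153 affects chromatin structure and transcription. RNA-Seq was performed on total RNA depleted of ribosomal RNA from undifferentiated EL 16.7 ES cells, a female line of the background F2:129S1/CastEiJx 129S1 with a wild type genotype. The control cells received a scramble shRNA by lentivirus, and the KD-1 and KD-2 cells received NUP153-specific shRNA-1 and shRNA-2. All 3 cultures grew with LIF on γ-irradiated DR4 mouse embryonic fibroblasts and were selected in 2 μg/ml puromycin for 2 days, so each library can hold RNA of feeder cells. There was 1 library per condition, no replicate and therefore no test, and every difference given here is a difference between 2 libraries.

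The libraries held 72344726, 85258834 and 69839336 reads on genes. Nup153, the targeted gene, had 27870, 16451 and 11126 reads, with log2 ratios to control of -0.99 and -1.43. Its RNA was thus lower but not absent in both knockdown libraries. The part of feeder cells in these reads was not tested, and RNA does not report NUP153 protein. All 12 markers of undifferentiated ES cells were detected, among them Pou5f1 with 35405, 45092 and 32962 reads, and their summed level was 1.10 times that of control for KD-1 and 0.744 times for KD-2. The summed level of 15 embryonic fibroblast markers was 1658, 851.8 and 3148 CPM, a unit of counts scaled by library size. That is 0.514 and 1.90 times control, and none of the 15 was at 0 in any library. Col3a1 held the largest part of the sum, with 54628, 25523 and 114064 reads. Log2 ratios of single fibroblast markers ran from -2.01 to -0.15 in KD-1 and from 0.37 to 1.865 in KD-2. Fewer cells of a type and less RNA per cell cannot be told apart in such libraries.

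Glutathione peroxidases reduce hydrogen peroxide and lipid hydroperoxides with electrons from glutathione, and several of them carry selenocysteine, an amino acid encoded by a UGA codon, at the active site. NRF2, the product of Nfe2l2, is held at a low level by KEAP1, which presents it for degradation, and oxidants or electrophiles release it from this control. Free NRF2 pairs with small MAF proteins at antioxidant response elements and activates genes for glutathione synthesis, the thioredoxin system, quinone reduction and heme degradation, while BACH1 represses several of the same genes, Hmox1 in particular.

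The active-site codon separates the family into selenocysteine and cysteine enzymes. Its surroundings are shown because they let the family members be told apart and show how close Gpx2 is to Gpx1. The stretches are taken from the coding strand of GENCODE M21 transcripts on GRCm38, 5′ to 3′, with the active-site codon in capitals and 5 codons on each side.
Gpx1: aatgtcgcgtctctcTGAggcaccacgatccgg
Gpx2: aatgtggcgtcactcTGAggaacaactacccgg
Gpx3: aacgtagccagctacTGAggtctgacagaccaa
Gpx4: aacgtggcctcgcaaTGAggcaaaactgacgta
Gpx7: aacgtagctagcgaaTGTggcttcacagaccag
Gpx8: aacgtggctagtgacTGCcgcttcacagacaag

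Gpx1, Gpx2, Gpx3 and Gpx4 have TGA, which is annotated as selenocysteine, while Gpx7 and Gpx8 have a cysteine codon at the place that matches the flanks of Gpx1 best without gaps. The codon lies at chr9:108339451-108339453 on the plus strand in Gpx1 and at chr12:76795256-76795258 on the minus strand in Gpx2. Of the 10 residues around the codon, Gpx2 shares 9 with Gpx1, Gpx3 and Gpx4 share 6, Gpx7 shares 6 and Gpx8 shares 5. Among the NRF2 targets, Txnrd1 also encodes selenocysteine, in codon 612 of a 613-codon transcript, with 1 glycine codon after it.
Txnrd1: ctccagtctggctgcTGAggt

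The core of the antioxidant response element, TGACNNNGC, was searched on both strands of RefSeq promoter windows of GRCm38.p6, which hold 250 bases before and 50 bases from each start site. Of the 10 genes, 9 had an entry, with 14 windows in all, and Hmox1 had none. The motif was found in 1 window of Gclm and 1 window of Txnrd1, beside 12.4% of all 32851 windows and 14.0% of 27025 genes. In both it reads on the opposite strand to the gene, so the capitals below are its reverse complement. The Gclm stretch is chr3:122245403-122245451, with the first motif base at position -134 from the start site, and the Txnrd1 stretch is chr10:82859094-82859142, with the first motif base at position -92 from a start site inside the gene, both printed on the plus strand. A match is a description of the letters, and its absence from the other windows says nothing of NRF2 at these genes.
Gclm: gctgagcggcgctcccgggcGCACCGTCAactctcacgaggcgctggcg
Txnrd1: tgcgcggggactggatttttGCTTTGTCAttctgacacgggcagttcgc

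Levels were compared between genes as RPKM, reads divided by exon length and by scaled library size. Gpx1 was the most abundant of the 10 in every library, with 362.5, 312.6 and 383.2 RPKM. Gpx2 was near the other end, ninth of 10 in control with 3.66 RPKM and the lowest in both knockdown libraries, with 1.47 and 1.17 RPKM. Gpx4 and Hmox1 took the places after Gpx1, followed by Txnrd1, Nqo1 and Gpx8 between 24.8 and 56.3 RPKM, Gpx7 between 8.97 and 12.8 RPKM, and Gclm and Gpx3 between 2.05 and 5.72 RPKM. Gclm depends on the annotation, since its exon sequence reaches 3517 bases further in GENCODE than in RefSeq, and within the RefSeq span its level was 12.8, 15.4 and 11.4 RPKM, against 11.1, 11.3 and 15.9 RPKM for Gpx7. The order of Txnrd1, Nqo1 and Gpx8, of Gpx4 and Hmox1 in KD-1, and of Gpx2 and Gpx3 in control changed when exon length was taken over all transcripts, and the order of such neighbours is not settled by these data.

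**Figure D1:**
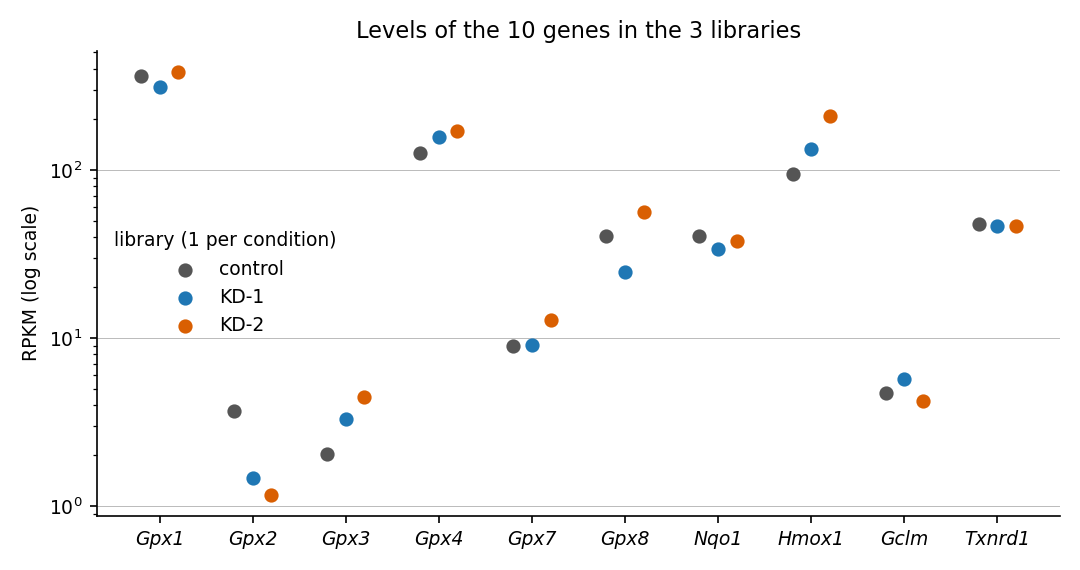
Level of each of the 10 genes in RPKM on a log axis, with 1 point for each library (control, KD-1, KD-2). Gpx1 lies above 300 RPKM in all 3 libraries, Gpx2 goes from 3.66 RPKM in control to 1.47 and 1.17 RPKM in the knockdowns, and the 3 points of Txnrd1 lie between 46.4 and 47.4 RPKM.

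Of the summed RPKM of the 6 peroxidases, Gpx1 made up 66.7%, 61.4% and 60.9%. The share of Gpx4 was 23.2%, 31.0% and 27.3%, and that of Gpx8 was 7.42%, 4.87% and 8.94%. Gpx2 supplied 0.674% of the sum in control and less than that in the knockdowns, 0.288% and 0.186%. With exon length over all transcripts, which is 3222 bases for Gpx2 in place of 1067, its share was 0.292%, 0.126% and 0.0799%. The gene with the largest ratios of the family was thus a very small part of its RNA, and the peroxidase RNA of these cells was mostly Gpx1 and Gpx4 in all 3 libraries.

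Gpx2 encodes a cytosolic enzyme known from the lining of the gut and lies at chr12:76792333-76795554 on the minus strand. It had 273, 128 and 94 reads. Both knockdown libraries were below control, which is the pattern it was selected on. After scaling it was 2.49-fold lower in KD-1 (log2 ratio -1.32, 95% counting interval -1.64 to -1.01) and 3.12-fold lower in KD-2 (-1.64, -1.999 to -1.30). These intervals come from the read counts alone and hold counting error only, since reads without molecular identifiers are not independent molecules and no library was repeated. Of the genes with the minimum of reads, 0.72% had a lower ratio than Gpx2 for KD-1 and 0.228% for KD-2, and 0.99% of them were lower by over 1.5-fold in both. KD-2 against KD-1 gave a log2 ratio of -0.32 (-0.72 to 0.07), whose interval includes 0.

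The annotated genes on either side of Gpx2 were within 1.5-fold of control. Churc1, 9153 bases away, had log2 ratios to control of 0.10 for KD-1 and -0.09 for KD-2, and Rab15, 2406 bases away and itself sparse with 94, 117 and 83 reads, had 0.09 and -0.29. The Gpx2 pseudogene Gpx2-ps1 had 12, 10 and 9 reads, and reads shared with it could not be separated here. Among genes averaging 100 reads or more, the 5 whose pair of log2 ratios lay nearest to that of Gpx2 were Bche, Rhox10, Rhox6, Nup153 itself and Herc6. Bche, which encodes butyrylcholinesterase, was the closest, with 793, 386 and 276 reads and log2 ratios of -1.27 and -1.63, at a Euclidean distance of 0.053, and the next, Rhox10, stood at 0.344. Likeness over 3 libraries rests on 2 ratios that share the control.

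Gpx3, the secreted peroxidase of plasma, had the highest ratio to control of the 6 peroxidases in either knockdown library. It lies at chr11:54902453-54910377 and had 228, 429 and 537 reads, each knockdown library standing above control. The log2 ratios were 0.68 (0.45 to 0.92) for KD-1 and 1.13 (0.90 to 1.36) for KD-2. Only the KD-2 interval clears 1.5-fold, which is 0.585 on the log2 scale. KD-2 exceeded KD-1 by 0.45 (0.26 to 0.63). Of its neighbours, Tnip1, 408 bases away, had log2 ratios of 0.44 and -0.38, and Hint1, 31952 bases away, had -0.08 and -0.36.

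Gpx1, the main cytosolic peroxidase (chr9:108338903-108340343), had 27156, 27442 and 30921 reads. With log2 ratios of -0.21 (-0.24 to -0.19) and 0.08 (0.06 to 0.10), KD-1 lay slightly below control and KD-2 slightly above it. Gpx4 reduces lipid hydroperoxides within membranes and guards cells from ferroptosis, an iron-dependent form of death. It lies at chr10:80047166-80056439 and had 11183, 16420 and 16423 reads. Both knockdown libraries were above control, by 0.33 (0.29 to 0.36) and 0.45 (0.41 to 0.48), within 1.5-fold, and KD-2 alone passed that line, at 0.605, with libraries scaled by their totals. Of its neighbours, Sbno2, 553 bases away, had log2 ratios of 0.33 and 0.93, and Polr2e, 7371 bases away, had 0.04 and -0.30.

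Gpx7 and Gpx8, the cysteine peroxidases of the endoplasmic reticulum, did not share the pattern of Gpx2 or of Gpx3. Gpx8 (chr13:113042753-113046410, minus strand) had 2953, 2127 and 4441 reads, the lowest value in KD-1 and the highest in KD-2. Its log2 ratio was -0.70 (-0.78 to -0.62) for KD-1 and 0.48 (0.41 to 0.55) for KD-2, and the difference between the knockdown libraries was 1.18 (1.11 to 1.26), the largest of the 10 genes. Gpx7 (chr4:108400390-108406961, minus strand) had 808, 960 and 1242 reads. KD-1 was level with control at 0.02 (-0.12 to 0.16), and KD-2 was higher at 0.51 (0.38 to 0.64). The fibroblast markers have the same order of libraries as Gpx8, KD-1 below control and KD-2 above it, and the part of feeder RNA in the Gpx7 and Gpx8 values was not tested.

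The last family members, Gpx5 and Gpx6, carry a cysteine codon in the mouse and are neighbours on chromosome 13. Gpx5 had 2, 0 and 9 reads and stayed below the minimum. Gpx6, a gene known from olfactory tissue, had 18, 49 and 44 reads. Its log2 ratios of 1.196 (0.41 to 2.08) and 1.16 (0.36 to 2.06) rest on few reads, and both intervals reach under 1.5-fold.

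Among the 4 NRF2 targets of the set, Hmox1 had the largest ratios. It encodes heme oxygenase 1, which opens the heme ring and releases iron, and lies at chr8:75093621-75100589. Hmox1 had 10350, 17207 and 24856 reads, higher in both knockdown libraries and highest in KD-2, where it passed Gpx4 in RPKM. Its log2 ratio was 0.505 (0.47 to 0.54) in KD-1, just short of 1.5-fold, and 1.16 (1.12 to 1.19) in KD-2, and KD-2 exceeded KD-1 by 0.65 (0.62 to 0.68). The genes beside it, Tom1 and Mcm5, had log2 ratios of 0.12 and 0.08 in KD-1 and of 0.11 and -0.27 in KD-2.

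The other three targets stayed within 1.5-fold of control in both knockdown libraries. Nqo1, the quinone reductase often read as a gauge of NRF2 activity, lies at chr8:107388225-107403206 on the minus strand and had 4383, 4291 and 4416 reads. Its log2 ratios were -0.26 (-0.32 to -0.20) for KD-1 and -0.10 (-0.16 to -0.04) for KD-2, where scaling by library totals gave 0.06. Gclm, the modifier subunit of the enzyme that begins glutathione synthesis (chr3:122245557-122270732), had 1848, 2616 and 1777 reads. KD-1 was above control by 0.27 (0.19 to 0.36) and KD-2 was below it at -0.16 (-0.26 to -0.07). Txnrd1, cytosolic thioredoxin reductase (chr10:82833951-82897712), had 13496, 15464 and 14247 reads and was the most even gene of the set, with log2 ratios of -0.03 (-0.07 to 0.00) and -0.03 (-0.06 to 0.01). Hmox1 therefore differed in size from the 3 other targets, whose ratios did not exceed 0.27 in either direction.

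**Figure D2:**
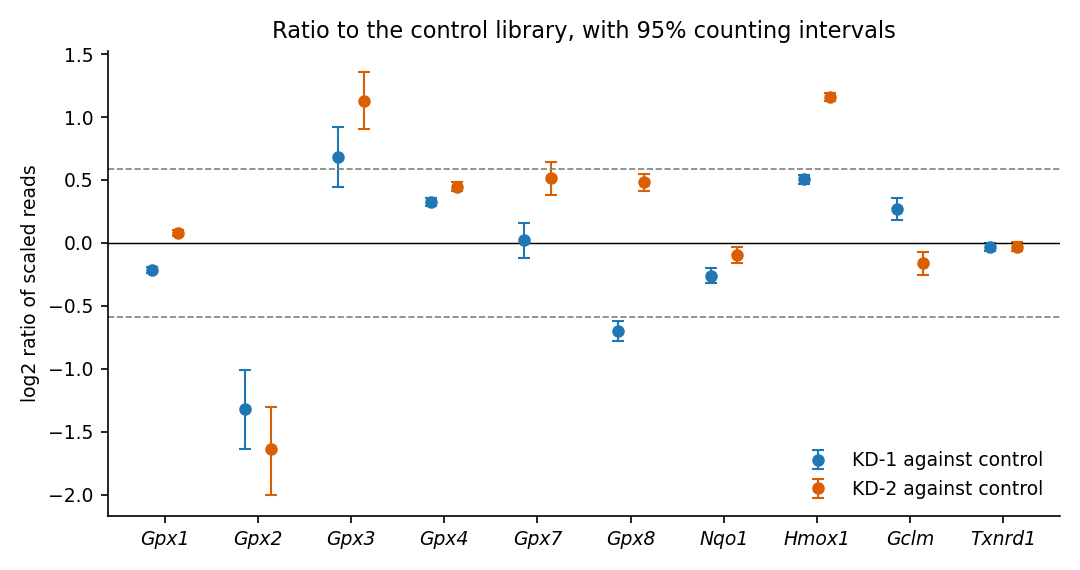
Log2 ratio of scaled reads to control for the 10 genes in KD-1 and KD-2 (points), with 95% intervals that cover counting error only (bars) and dashed lines at 1.5-fold. Gpx2 lies below the lower line in both libraries, Gpx3 lies above the upper line in both, Gpx8 is past the line below 0 in KD-1 only, and Hmox1 is past the line above 0 in KD-2 only.

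Counted over the set, 1 of 10 genes was higher than control by over 1.5-fold in KD-1 (Gpx3) and 2 were lower (Gpx2 and Gpx8), beside 8.63% of all genes higher and 5.62% lower. The median log2 ratio of the 10 was -0.01, beside 0.02 over all genes. In KD-2, 2 of 10 were higher (Gpx3 and Hmox1) and 1 was lower (Gpx2), beside 17.1% higher and 10.2% lower over all genes, with a median of 0.26 beside -0.02. Gpx2 is in these counts because it was selected on them. Just outside the threshold were Hmox1 in KD-1 at 0.505 and Gpx7 in KD-2 at 0.51, and just inside it was Gpx3 in KD-1 at 0.68. When KD-2 was compared with KD-1, 2 of 10 genes were higher (Gpx8 and Hmox1) and 0 were lower, beside 16.1% and 13.9% of all genes, with a median of 0.23 beside -0.12. Nothing is read from the counts of lower genes against control, since they hold the selected Gpx2. With libraries scaled by their totals, Gpx4, Gpx7 and Gpx8 were also higher by over 1.5-fold in KD-2, where 23.6% of all genes then were. Both knockdowns were compared with the same control library, so their values stand side by side and no agreement is read from them.

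RNA of NRF2, its inhibitor and its competitor lay within 1.5-fold of control, with Keap1 in KD-2 close to that line. Nfe2l2 had 3377, 3746 and 4559 reads, with log2 ratios of -0.08 and 0.33. Keap1 had 1422, 1749 and 2234 reads and log2 ratios of 0.07 and 0.545, and the KD-2 ratio of Keap1 was between 0.58 and 0.70 under the other scalings, on both sides of 1.5-fold. Bach1, the repressor of Hmox1, had 2790, 3065 and 3130 reads and log2 ratios of -0.09 and 0.06. Of the 12 genes for NRF2 and its regulators, 0 were past 1.5-fold in KD-1, and in KD-2 it was 1, Mafk, a small MAF partner, with 1542, 1591 and 3167 reads and a log2 ratio of 0.93 in KD-2. Over all genes 8.63% were higher and 5.62% lower in KD-1, and 17.1% were higher and 10.2% lower in KD-2, and the counts of the gene lists are to be read beside these shares. RNA levels do not report NRF2 protein, which is controlled by its degradation.

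Of 33 further NRF2 targets with the minimum of reads, 2 were higher and 3 lower in KD-1 (median -0.04), and 9 were higher and 2 lower in KD-2 (median 0.00). Prdx6, a peroxiredoxin with a single active cysteine, had 8063, 17110 and 10283 reads, and its log2 ratio of 0.86 in KD-1 was the highest of this list there. Fth1, the ferritin heavy chain that stores iron, had 11308, 17802 and 22823 reads, the same order of libraries as Hmox1, with 0.91 in KD-2. Slc6a9, a glycine transporter gene with 104, 160 and 237 reads, had 1.08 in KD-2. Gstm3, a glutathione transferase, had 32, 11 and 5 reads, with log2 ratios of -1.72 and -2.67 that rest on very few reads. Abcc1, an exporter of glutathione conjugates, had 5574, 4048 and 5985 reads and a log2 ratio of -0.69 in KD-1, and Aox1, an aldehyde oxidase, had 710, 512 and 1194 reads and -0.70 in KD-1.

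In glutathione synthesis and turnover, 0 of 19 genes were past 1.5-fold in KD-1, and 3 were higher and 1 lower in KD-2. The lower one was Gsr, the reductase that returns oxidized glutathione to the form the peroxidases use, with 15460, 13363 and 9385 reads and a log2 ratio of -0.83 in KD-2. The higher ones were Oplah at 0.70, Ggt7 at 0.68 and Slc1a4 at 0.66. Of 19 thioredoxin and peroxiredoxin genes, Prdx6 was the only one past 1.5-fold in KD-1, and Nxn at 0.72 and Sesn2 at 0.65 were the only ones in KD-2.

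Since Gpx1 to Gpx4 and Txnrd1 need selenocysteine, the genes that make and insert it were counted too. Of these 13 genes, 1 was lower in KD-1, the ribosomal protein gene Rpl30 with 74, 54 and 81 reads and -0.68 (-1.22 to -0.16), an interval from few reads that reaches under 1.5-fold, and 0 were past 1.5-fold in KD-2. Of 17 other selenoprotein genes, 0 were past 1.5-fold in KD-1, and 5 were higher than control in KD-2, among them Selenom at 1.35, Selenon at 1.14, Selenop at 0.82 and Dio2 at 0.76, beside 17.1% of all genes. In the same library 12 of 15 fibroblast markers were higher, with a summed level 1.90 times control, and their part in these values was not tested. Of the selenoprotein genes counted here, only Gpx2 and Gpx3 were thus past 1.5-fold in KD-1, beside 8.63% of all genes higher and 5.62% lower. In the 13 ferroptosis genes, 1 was lower in KD-1, and 3 were higher and 1 lower in KD-2, where Fth1 is counted again beside Aifm2 at 0.67 and Gch1 at 0.59, and the lower one was Tfrc, the transferrin receptor, at -0.67.

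Over the 135 pathway genes with the minimum of reads, 3 were higher and 9 lower in KD-1 (median -0.05), and 28 were higher and 4 lower in KD-2 (median 0.03). As shares these are 2.22% higher and 6.67% lower in KD-1, beside 8.63% and 5.62% of all genes, and 20.7% higher and 2.96% lower in KD-2, beside 17.1% and 10.2% of all genes. KD-2 against KD-1 gave 26 higher and 5 lower, beside 16.1% and 13.9% of all genes, with a median of 0.02 beside -0.12. As shares these are 19.3% higher and 3.70% lower.

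Because the libraries differ in fibroblast markers, the 10 genes were set beside marker genes of 4 cell types. Of the 15 fibroblast markers, 9 were lower by over 1.5-fold in KD-1 (median -0.64), against 12 higher in KD-2 (median 0.79). In KD-2 against KD-1 all 15 were higher, with a median of 1.73, and Gpx8 at 1.18 and Hmox1 at 0.65 were the genes of the set that were higher there by over 1.5-fold. Against control, Gpx2 was lower in both libraries, and Gpx3, Gpx4 and Hmox1 were higher in both. In KD-2 against KD-1, Gpx3 was at 0.45 and Gpx4 at 0.12, and Gpx2 was at -0.32 with an interval that includes 0. Of 11 endoderm markers with the minimum of reads, 1 was higher in KD-1 and 4 were in KD-2. Among the 4 was Pdgfra at 0.68, which is also counted with the fibroblast markers. The summed level of all 15 endoderm markers was 584.2, 616.6 and 720.4 CPM. It was carried mostly by Lamb1, Apoe, Lama1 and Pdgfra, with 13577, 12962, 7075 and 6423 reads in control. Of 7 trophoblast markers with that minimum, 3 were higher and 0 lower in each knockdown library (medians 0.29 and 0.42), Cdx2 with 6, 25 and 24 reads, Gata3 with 17, 41 and 33 reads and Eomes with 249, 463 and 406 reads. The summed level of all 9 trophoblast markers, carried mostly by Tfap2c with 2683, 2444 and 2145 reads, was 55.3, 51.3 and 45.8 CPM. Of the 12 ES cell markers, 1 was higher and 0 were lower in KD-1, against 1 higher and 2 lower in KD-2. The part of these cell types in the values of the 10 genes was not tested.

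**Figure D3:**
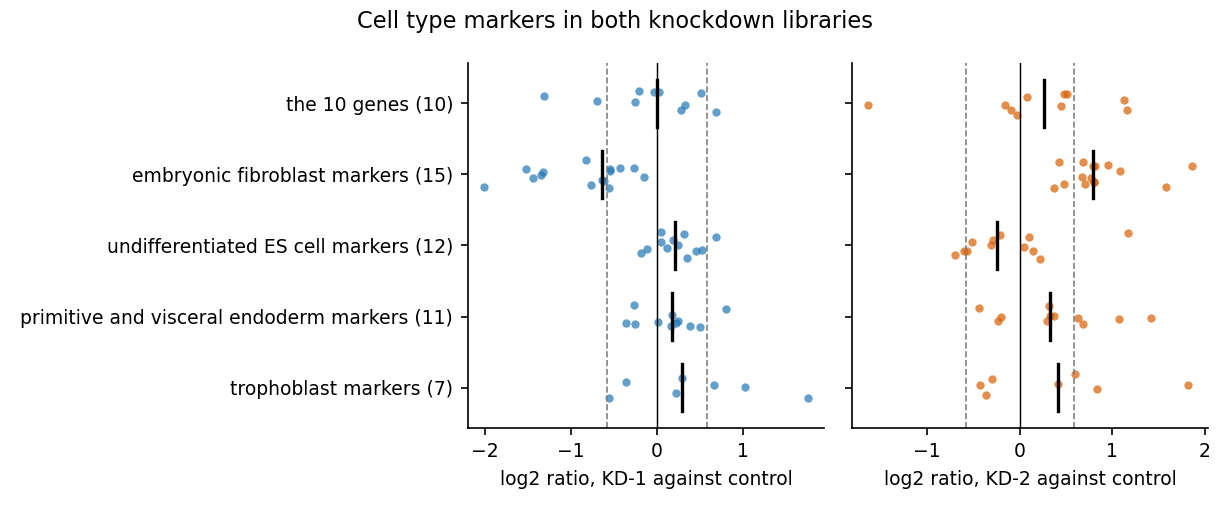
Log2 ratio to control of the 10 genes and of marker genes of 4 cell types, KD-1 on the left and KD-2 on the right, with the number of genes in brackets, a bar at each median and dashed lines at 1.5-fold. Fibroblast markers have a median of -0.64 on the left and 0.79 on the right, whereas the medians of the 10 genes are -0.01 and 0.26.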

How the data were processed

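RNA-Seq reads of 3 mouse ES cell libraries (control, KD-1, KD-2, 1 each) were trimmed with Trim Galore 0.4.1 and mapped with TopHat2 2.1.1 to mm10 (GRCm38) per the submitters' processing notes. The deposited values are raw counts of reads on each gene, before the normalization with RUVseq that the methods describe. The notes name HTSeq and the methods name featureCounts as the counter, and the strand setting is not given in the sources used here. The 5 summary lines, which hold 23.5% of counted reads of control, 25.6% of KD-1 and 23.0% of KD-2, were left out.

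Libraries were scaled together by the upper quartile with edgeR 4.0.16 in R 4.3.3. Log2 ratios used scaled reads with a pseudocount of 0.5, for genes averaging 10 reads or more, and were counted past a fold of 1.5. With 1 library per condition no test was run. Exact Clopper-Pearson 95% intervals of each ratio were computed from the 2 read counts with scipy 1.17.1, and they cover counting error only. RPKM and CPM used the scaled library sizes, and RPKM used exon lengths of GENCODE M21 basic transcripts, which may differ from the annotation the authors counted on. No exon of the 10 genes overlaps another counted gene. Of 24421 symbols, 24021 matched the annotation, 23376 of them by the same symbol. Promoter windows and older symbols are from RefSeq (GRCm38.p6). The procedure was tested on simulated counts that held counting error only, which says nothing of the spread between cultures.

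The members and lists were chosen with earlier results of these data known. The genes named are the 10 members, Gpx5, Gpx6, Nfe2l2, Keap1, Bach1, Nup153, up to 4 genes per pathway list past 1.5-fold with the largest ratio in each knockdown, and the 5 genes nearest to Gpx2. The genes next to a member by position were listed for all members, and those printed, Gpx2-ps1 and single markers were picked with their values in view. Alternatives were TMM, DESeq2 1.42.0 size factors, library totals, an upper quartile over genes averaging 10 reads or more, a pseudocount of 5, a fold of 2, and minimum means of 100 reads and of none. Exon lengths over all transcripts and within RefSeq gene spans were added after seeing the data.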

Additional observations from a re-analysis of the deposited data

Results flagged for a closer look

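Gpx1, Gpx8 and Gclm lay on opposite sides of control in the KD-1 and KD-2 libraries. The log2 ratio of Gpx1 was -0.21 for KD-1 and 0.08 for KD-2. For Gpx8 it was -0.70 for KD-1 and 0.48 for KD-2, the widest gap of the 10 genes. Gclm had 0.27 for KD-1 and -0.16 for KD-2, the reverse order of libraries. All 6 counting intervals leave out 0 in the main setting, but 4 of the values left them under another scaling. With library totals Gclm in KD-2 came to -0.006 and Gpx8 in KD-2 to 0.639, past 1.5-fold. Gpx1 was between 0.118 and 0.238 in KD-2 under the other scalings, and -0.279 in KD-1 with DESeq2's size factors. With 1 library per condition the difference between the knockdowns was not tested.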

How the results depend on the processing

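Under 5 other settings of scaling and pseudocount, 144 of 150 log2 ratios of the 10 genes kept their sign, and the 6 that changed it were at most 0.096 from 0 under the main setting (Gpx7 in KD-1, Nqo1 and Txnrd1 in KD-2). The largest shift was 0.167, and 49 of the 150 lay outside the counting interval of the main value, which does not cover the choice of scaling. With a fold of 2, the genes past the fold went from 3 to 1 in KD-1 and from 2 to 1 in KD-2 against KD-1. The share of all genes past 2-fold is not given for single comparisons, so nothing is read from these counts. The count for the same side in both libraries went from 2 to 1, where all genes gave 4.63% and 1.16%. For that count the control is shared and Gpx2 was selected for the pattern. With library totals the genes past 1.5-fold went from 3 to 6 in KD-2 (5 higher, 1 lower, adding Gpx4, Gpx7 and Gpx8). In KD-2 against KD-1 they went from 2 to 4 (4 higher, adding Gpx3 and Gpx7). Under this scaling 23.6% of all genes were higher and 4.92% lower in KD-2, and 21.2% and 7.37% in KD-2 against KD-1. Library totals raise the median of all genes by 0.157 in KD-2 and by 0.166 in KD-2 against KD-1, and DESeq2's size factors raise the latter by 0.103. Of all genes past 1.5-fold in KD-2, 62.6% were higher in the main setting and 82.8% with library totals, and in KD-2 against KD-1 53.7% and 74.2%. The total of pathway genes past 1.5-fold moved by less than 1.5 times, but with library totals the lower ones went from 4 to 2 in KD-2 and from 5 to 2 in KD-2 against KD-1, and the higher ones from 28 to 34 and from 26 to 33. For KD-2 against KD-1, TMM and the filtered upper quartile left 3 lower, and DESeq2's size factors left 2. No paired analysis was possible because each condition has 1 library. The spread between cultures is unknown, and Gpx2, Gpx6, Gstm3 and Rpl30 rest on few reads.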

Other observations

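Some redox genes outside the 10 lay below control in KD-1 and above it in KD-2, as Gpx8 did, and those named here were picked for it. Others ran the other way, such as Cth with log2 ratios of 0.46 and -0.42, Txnip with 0.12 and -0.50 and Acsl4 with 0.145 and -0.51. Msrb3, a methionine sulfoxide reductase, had 4127, 1859 and 8140 reads (control, KD-1, KD-2), with log2 ratios of -1.38 and 0.87. Sod3, the extracellular superoxide dismutase, had 129, 80 and 347 reads and log2 ratios of -0.91 and 1.32. Qsox1, a sulfhydryl oxidase of the secretory pathway, had 4563, 3448 and 8988 reads and log2 ratios of -0.63 and 0.87, and Gch1, which begins tetrahydrobiopterin synthesis, had -0.87 and 0.59. The 15 fibroblast markers summed to 0.514 times control for KD-1 and 1.90 times control for KD-2 in the same libraries, and their part in these values was not tested.

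In the list of superoxide dismutases, catalase and methionine sulfoxide reductases, 2 of 11 genes were lower in KD-1, whereas KD-2 had 4 higher and 1 lower. The paraoxonase gene Pon2 was among the higher ones at 0.80, and the lower one was Msrb2 at -0.63. Of 12 genes for oxidative folding in the endoplasmic reticulum, 2 were lower in KD-1, Qsox1 and Pdia6. Pdia6 had 17648, 13780 and 16236 reads and was only just past 1.5-fold. Its KD-1 interval of -0.62 to -0.55 reaches under that line. Qsox1 alone was past 1.5-fold in KD-2.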
